A study of Mus musculus with 6 samples.

Results

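The 10 genes of the vascular endothelial growth factor (VEGF) system followed here were read out of the RNA-seq counts of macrophages in the co-culture system, out of 52550 genes in the deposited table. They were taken by symbol and comprised the secreted ligands Vegfa, Vegfb, Pgf, Angpt2, Angptl2 and Angptl4, the VEGF receptors Flt1 and Kdr, and the hypoxia-inducible factor (HIF) subunits Hif1a and Epas1. Bone marrow-derived macrophages (BMDMs) of MSR1 KO mice and of MSR1 WT mice, both on the C57BL/6 background, were grown with 25 ng/ml M-CSF for 7 days and then kept for 48 h with bone marrow stem cells (BMSCs) on the other side of a transwell membrane. The genotype of the BMSCs is not stated in the labels. There were 3 libraries per genotype, and the labels do not say that each came from a separate animal, so p-values measure the spread between these libraries. The targeted gene Msr1, a scavenger receptor, was counted 2118, 1825 and 2000 times in MSR1 KO and 7543, 9163 and 9219 times in MSR1 WT macrophages, which is -2.02 ± 0.14 as a log2 fold change with its standard error (edgeR quasi-likelihood test, adjusted p = 0.0012).

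VEGF ligands bind receptor tyrosine kinases on endothelial cells and drive the growth of blood vessels, and macrophages are a known source of VEGF-A in healing tissue, bone included. Angiopoietins tune vessel stability through the receptor Tie2, and the angiopoietin-like proteins act through other partners. HIF-1α and HIF-2α, encoded by Hif1a and Epas1, are degraded in the presence of oxygen through prolyl hydroxylation and the VHL protein, so that their activity is set largely at the protein level. RNA counts therefore measure the supply of their transcripts and not their activity.

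The sequences before the annotated starts of Vegfa, Vegfb and both receptors are shown because HIF binds a short core in the promoters of its targets. Each run holds the 250 bases before the start in RefSeq on GRCm38.p6, 5′ to 3′ on the strand of the gene, which is the minus strand for all 4. Capitals mark ACGTG or GCGTG on either strand (CACGT or CACGC when read on the strand shown), where the palindrome CACGTG would count once on each strand. The Vegfa run is at chr17:46032378-46032627, Vegfb at chr19:6987652-6987901, Kdr at chr5:75978456-75978705 and Flt1 at chr5:147726012-147726261.
Vegfa: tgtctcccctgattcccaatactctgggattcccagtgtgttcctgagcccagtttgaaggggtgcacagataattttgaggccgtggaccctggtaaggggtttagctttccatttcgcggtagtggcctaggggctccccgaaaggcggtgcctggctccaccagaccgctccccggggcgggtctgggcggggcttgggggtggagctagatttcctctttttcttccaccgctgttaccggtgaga
Vegfb: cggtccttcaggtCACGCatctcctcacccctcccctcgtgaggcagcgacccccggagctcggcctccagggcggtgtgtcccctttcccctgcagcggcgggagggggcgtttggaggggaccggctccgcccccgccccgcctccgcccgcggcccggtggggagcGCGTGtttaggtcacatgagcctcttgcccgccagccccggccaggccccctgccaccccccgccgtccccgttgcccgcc
Kdr: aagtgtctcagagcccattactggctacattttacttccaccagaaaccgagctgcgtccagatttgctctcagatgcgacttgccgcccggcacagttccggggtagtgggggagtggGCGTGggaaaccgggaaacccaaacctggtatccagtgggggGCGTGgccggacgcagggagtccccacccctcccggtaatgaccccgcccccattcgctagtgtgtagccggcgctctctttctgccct
Flt1: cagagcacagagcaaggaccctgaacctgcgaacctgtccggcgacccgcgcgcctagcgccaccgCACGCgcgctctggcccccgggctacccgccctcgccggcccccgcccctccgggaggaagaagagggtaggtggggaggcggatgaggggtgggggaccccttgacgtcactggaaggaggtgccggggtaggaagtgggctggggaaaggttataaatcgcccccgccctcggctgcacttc
The Vegfa run held no such core, and bases further upstream than these 250 were not searched in any gene. Vegfb held a core 237 and another 81 bases before its start, Kdr cores at 131 and 89 bases, and Flt1 a single core at 184 bases. Of all 32851 RefSeq windows of this length, 38.6% held at least 1 core and 16.7% held 2 or more, so a match here is common and describes letters only. A further Vegfa window, at an internal start, held 2 cores, a Pgf window held 1 and the other Pgf window none, and Angptl2 held none, while Hif1a held 3, of which 2 overlap. RefSeq windows were matched for 7 of the 10 genes.

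Total counts per library ranged from 36143518 to 47417448. Across the whole table MSR1 WT replicate 3 was closer to the MSR1 KO libraries than the other two MSR1 WT libraries were. The chi-square statistic per degree of freedom between its counts and those of MSR1 KO libraries was 47.1 to 61.3, against 68.7 to 105 for MSR1 WT replicates 1 and 2, and 26.1 to 52.1 between libraries of the same genotype. Results that moved without this library are given both ways.

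All 10 genes had enough counts to enter the edgeR model. Epas1 fell in MSR1 KO macrophages at an adjusted p under 0.05, the only 1 of the 10 called by the edgeR test, where 2.66% of the 16402 tested genes were lower at that threshold. None of the 10 was higher by this edgeR test, where 2.25% of tested genes were, although 1 higher gene (Vegfa) and 2 lower genes (Epas1 and Vegfb) had an unadjusted p under 0.05, against 8.65% and 10.2% of tested genes. DESeq2's Wald test called Vegfa as well, at an adjusted p of 0.0111. Under the study's definition of a differentially expressed gene (fold change above 1.5 and unadjusted p under 0.05), Epas1 alone was lower and none was higher in edgeR, against 5.05% and 3.59% of tested genes, while DESeq2 placed Flt1 and Kdr among the higher genes. That count of higher genes in edgeR was 3 without MSR1 WT replicate 3 (Angpt2, Kdr and Pgf) and 1 (Flt1) without MSR1 KO replicate 3 or MSR1 WT replicate 1. The libraries of the genotypes were wholly apart for Epas1 (MSR1 KO below) and for Vegfa (MSR1 KO above), as was the case for 13.4% and 12.1% of tested genes respectively, and the groups overlapped for the other 8.

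**Figure D1:**
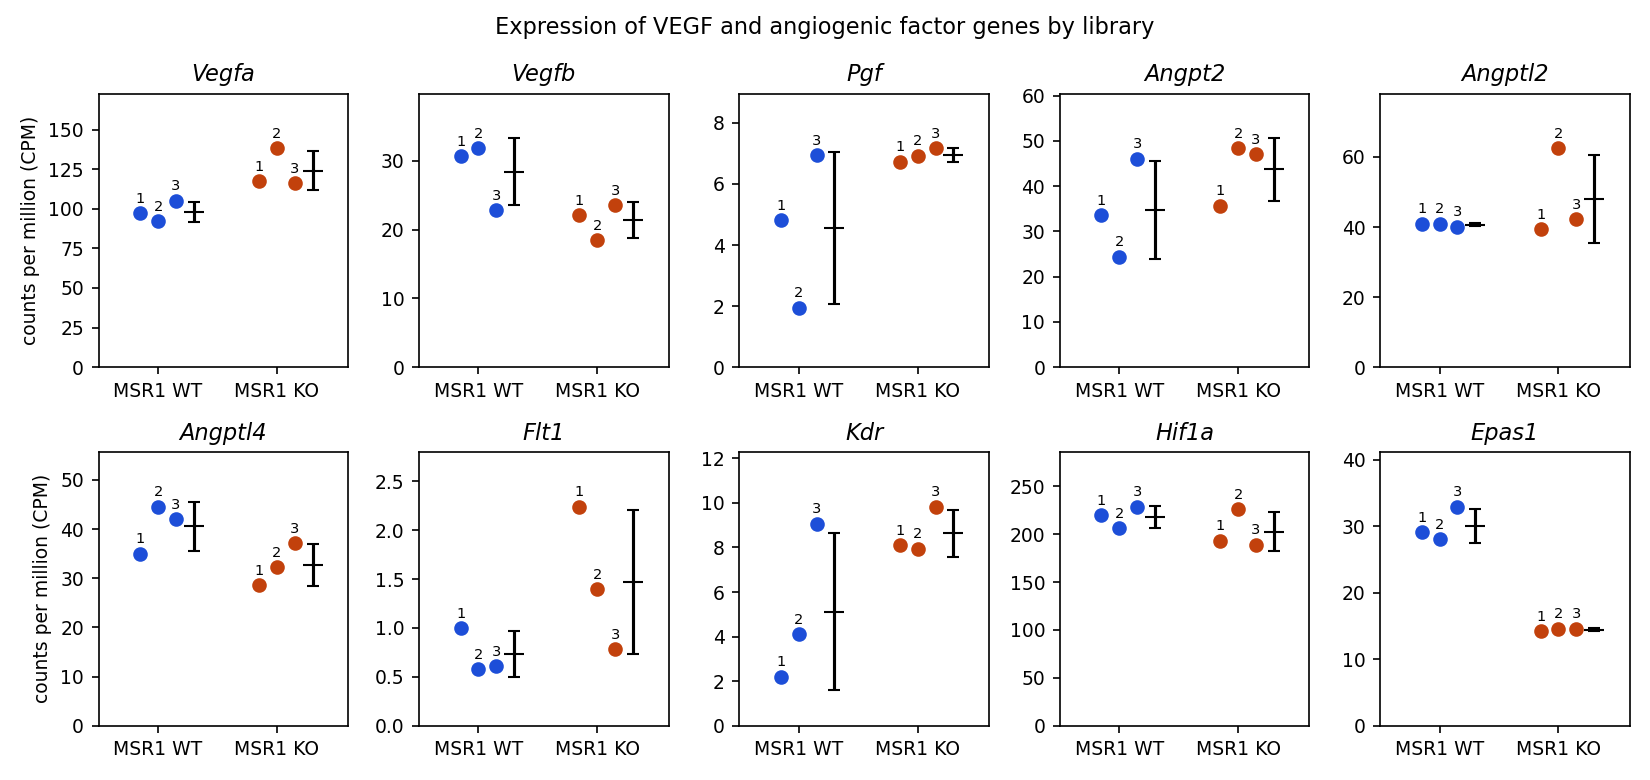
CPM (each count scaled to the total of its library, y axis, from 0) of the 10 genes in each library, with MSR1 WT in blue and MSR1 KO in orange, replicate numbers above the points, and a bar for the mean ± SD of 3 libraries. Epas1 sits at 14.2 to 14.6 CPM in the 3 MSR1 KO libraries and at 28.0 to 33.0 CPM in MSR1 WT, whereas MSR1 WT replicate 3 sits among the MSR1 KO libraries for Vegfb, Pgf, Angpt2 and Kdr.

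Epas1 encodes HIF-2α, the oxygen-regulated subunit with a narrower range of cell types than HIF-1α. Epas1 (ENSMUSG00000024140.9, chromosome 17 from 86753907 to 86833410, plus strand, on GRCm38 as are all positions here) was counted 513, 585 and 692 times in MSR1 KO and 1195, 1307 and 1350 times in MSR1 WT macrophages. The groups did not overlap, and the 3 MSR1 KO libraries were nearly equal once scaled to their depth, at 14.2, 14.6 and 14.6 CPM. Its mean fell from 30.0 ± 2.58 CPM in MSR1 WT to 14.5 ± 0.225 CPM in MSR1 KO (SD, n = 3 each), and the log2 fold change with its standard error was -1.02 ± 0.10 (edgeR quasi-likelihood test, adjusted p = 0.0045). This corresponds to a fold change of 0.492 with a 95% interval from 0.419 to 0.577. The call of Epas1 held in all 12 alternatives, with log2 fold changes from -1.08 to -0.95 and adjusted p-values from 2e-13 in DESeq2 to 0.0419 in edgeR. Stromal and endothelial cells also express Epas1, and the summed stromal markers were at 1999 to 2611 CPM in MSR1 KO and 2830 to 3510 CPM in MSR1 WT macrophages, whereas the endothelial markers were at 124 to 152 CPM in MSR1 KO and 88.1 to 125 CPM in MSR1 WT. Their part in the fall of Epas1 was not tested, and in bulk RNA fewer cells of a type and less RNA per cell cannot be told apart.

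Hif1a encodes HIF-1α, the subunit present in most cell types and linked to glycolysis in activated macrophages. Hif1a (ENSMUSG00000021109.13, chromosome 12 from 73901375 to 73947530, plus strand) was counted 6982, 9068 and 8972 times in MSR1 KO and 9006, 9610 and 9367 times in MSR1 WT macrophages. The libraries of both genotypes overlapped, at 203 ± 20.1 CPM in MSR1 KO and 218 ± 11.3 CPM in MSR1 WT (SD, n = 3 each). Its log2 fold change was -0.07 (SE 0.087, edgeR adjusted p = 0.72), and the 95% interval of the fold change ran from 0.827 to 1.09, so the fold change of Epas1 lies outside it. The log2 fold change lay between -0.16 and -0.03 with any library left out. Of its exon bases, 5.6% are shared with Gm15283 on the opposite strand, which had 550 counts over all libraries, and 2.51% with Gm49321 on the same strand.

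The ratio between the related subunits, computed per kb of exon and chosen after the values were seen, also differed between the libraries. Hif1a exceeded Epas1 by 12.9, 14.7 and 12.3 times in MSR1 KO and by 7.15, 6.97 and 6.58 times in MSR1 WT macrophages. The ratio was thus higher in every MSR1 KO library (two-sided p = 0.1 by an exact permutation test, which cannot go lower with 3 libraries against 3). Epas1 already lay wholly apart when the ratio was chosen, so this test adds nothing to the values of Epas1.

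Vegfa encodes VEGF-A, the main ligand for vessel growth. Vegfa (ENSMUSG00000023951.17, chromosome 17 from 46016993 to 46032369, minus strand) was counted 4249, 5550 and 5516 times in MSR1 KO and 3979, 4295 and 4302 times in MSR1 WT macrophages. Each MSR1 KO library was above each MSR1 WT library at 118, 138 and 116 CPM against 97.1, 92.1 and 105 CPM. The log2 fold change was 0.37 (SE 0.093), a fold change of 1.29 with a 95% interval from 1.12 to 1.498, and it did not pass the adjustment over all genes (edgeR quasi-likelihood test, adjusted p = 0.0635). Over the 12 alternatives the log2 fold change of Vegfa ranged from 0.29 to 0.42 and the adjusted p from 0.0111 in DESeq2 to 0.212 in edgeR. GENCODE M21 lists 13 transcripts of Vegfa, 8 of them protein coding, and a count per gene does not show which were made.

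Vegfb encodes VEGF-B, a ligand of the receptor encoded by Flt1 that is known from lipid handling in heart and muscle. Vegfb (ENSMUSG00000024962.13, chromosome 19 from 6982473 to 6987651, minus strand) was counted 798, 743 and 1119 times in MSR1 KO and 1259, 1485 and 935 times in MSR1 WT macrophages. MSR1 WT replicate 3, at 22.8 CPM, lay within the MSR1 KO range of 18.5 to 23.6 CPM, while the other two MSR1 WT libraries were at 30.7 and 31.9 CPM. Vegfb had a log2 fold change of -0.38 (SE 0.15, edgeR adjusted p = 0.22, 0.0355 before adjustment), which went to -0.51 without MSR1 WT replicate 3. The ratio of Vegfa to Vegfb per kb of exon, also chosen after the values were seen, was 1.99, 2.80 and 1.85 in MSR1 KO and 1.184, 1.08 and 1.72 in MSR1 WT, replicate by replicate. It was higher in every MSR1 KO library (two-sided exact permutation p = 0.1, again the lowest it can reach). Vegfa already lay wholly apart when this pair was chosen, so the test adds nothing to the values of the single genes.

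Pgf encodes placental growth factor, a further ligand of the Flt1 receptor. Pgf (ENSMUSG00000004791.7, chromosome 12 from 85166635 to 85177790, minus strand) was counted 243, 278 and 340 times in MSR1 KO and 197, 91 and 284 times in MSR1 WT macrophages. The 3 MSR1 KO libraries were close together at 6.94 ± 0.224 CPM, whereas the MSR1 WT libraries spread over 4.56 ± 2.50 CPM (SD, n = 3 each) and replicate 3 overlapped the MSR1 KO libraries. Its log2 fold change of 0.64 (SE 0.38, edgeR adjusted p = 0.43) rested on the MSR1 WT libraries, since it was 1.07 without replicate 3 and 0.27 without replicate 2.

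Angpt2 encodes angiopoietin-2, which loosens vessels by competing at Tie2. Angpt2 (ENSMUSG00000031465.6, chromosome 8 from 18690263 to 18741562, minus strand) was counted 1291, 1943 and 2231 times in MSR1 KO and 1377, 1140 and 1886 times in MSR1 WT macrophages. The groups overlapped, with MSR1 KO replicate 1 near MSR1 WT replicate 1 and MSR1 WT replicate 3 near the other two MSR1 KO libraries. The log2 fold change was 0.37 (SE 0.22, edgeR adjusted p = 0.43) and went to 0.16 when MSR1 WT replicate 2 was left out and to 0.62 when replicate 3 was.

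Angptl2 encodes a secreted protein linked to inflammation. Angptl2 (ENSMUSG00000004105.8, chromosome 2 from 33216069 to 33247717, plus strand) was counted 1422, 2509 and 1999 times in MSR1 KO and 1679, 1909 and 1642 times in MSR1 WT macrophages. The MSR1 WT libraries were nearly equal at 40.1 to 41.0 CPM, and MSR1 KO replicate 2, at 62.5 CPM, stood above all other libraries. Its log2 fold change of 0.27 (SE 0.16, edgeR adjusted p = 0.43) went to 0.038 without that library.

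Angptl4 encodes an inhibitor of lipoprotein lipase whose gene is a known target of both HIF and PPAR factors. Angptl4 (ENSMUSG00000002289.15, chromosome 17 from 33773750 to 33781575, minus strand) was counted 1035, 1296 and 1762 times in MSR1 KO and 1436, 2077 and 1722 times in MSR1 WT macrophages. MSR1 KO replicate 3, at 37.2 CPM, lay above MSR1 WT replicate 1, at 35.03 CPM. Its log2 fold change was -0.28 (SE 0.13, edgeR adjusted p = 0.29), and the 95% interval of the fold change ran from 0.674 to 1.01. The log2 fold change was -0.18 without MSR1 KO replicate 1 and -0.38 without MSR1 KO replicate 3.

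**Figure D2:**
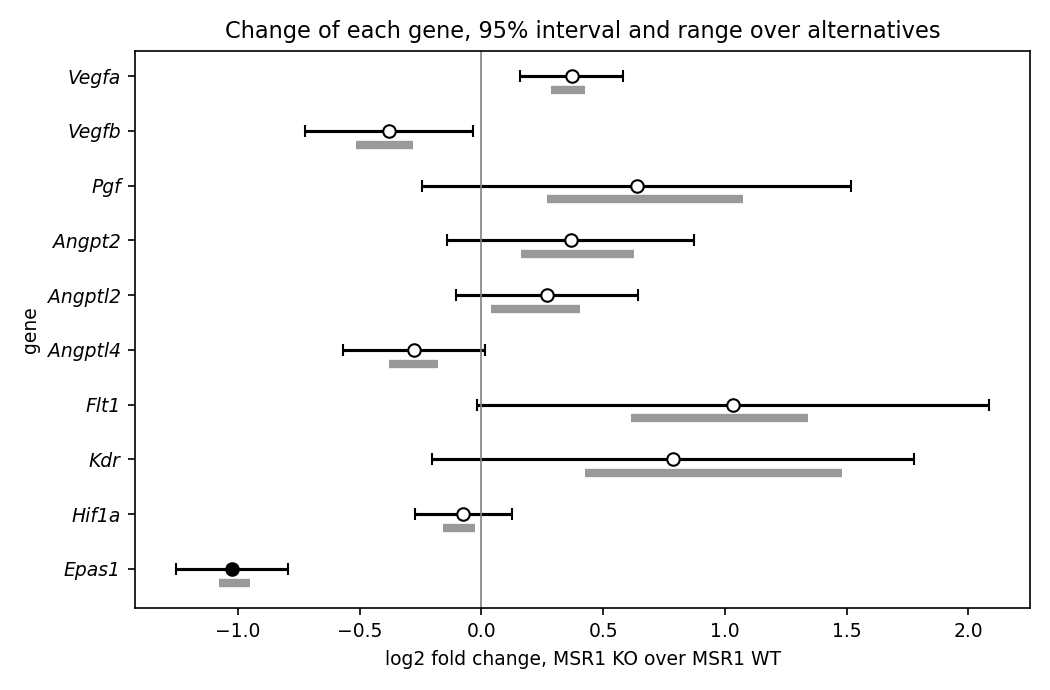
Log2 fold change of each gene (x axis, MSR1 KO over MSR1 WT) with its 95% interval from edgeR, filled where the adjusted p is under 0.05, and a grey bar for the range over 12 alternative analyses. The interval of Epas1 lies wholly below 0 with the narrow range from -1.08 to -0.95, and those of Flt1, Kdr and Pgf are the widest.

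The receptors had the lowest mean levels per kb of exon among the 10 genes, although Kdr overlapped with Pgf in MSR1 WT libraries. Flt1, which encodes VEGFR1 and in monocytes is known as a receptor for migration (ENSMUSG00000029648.13, chromosome 5 from 147561604 to 147726011, minus strand), was counted 81, 56 and 37 times in MSR1 KO and 41, 27 and 25 times in MSR1 WT macrophages. MSR1 KO replicate 3 lay below MSR1 WT replicate 1, and the log2 fold change of 1.03 (SE 0.46, edgeR adjusted p = 0.27) went to 0.61 without MSR1 KO replicate 1. The 95% interval of the fold change ran from 0.987 to 4.24, the MSR1 KO libraries spread from 2.24 to 0.780 CPM, and gene counts do not separate the membrane form from the soluble form that traps VEGF.

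Kdr encodes VEGFR2, the main signalling receptor of endothelial cells. Kdr (ENSMUSG00000062960.10, chromosome 5 from 75932827 to 75978458, minus strand) was counted 293, 319 and 466 times in MSR1 KO and 90, 192 and 371 times in MSR1 WT macrophages. The MSR1 KO libraries kept to 7.95 to 9.83 CPM, while the MSR1 WT libraries were at 2.195, 4.12 and 9.06 CPM, so that MSR1 WT replicate 3 again lay among the MSR1 KO libraries. The log2 fold change was 0.79 (SE 0.43, edgeR adjusted p = 0.38). Without MSR1 WT replicate 3 it was 1.48 with an adjusted p of 0.0335, the only call of Kdr among the 12 alternatives, whose adjusted p in edgeR and DESeq2 reached 0.647. Without MSR1 WT replicate 1 it was 0.43.

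**Figure D3:**
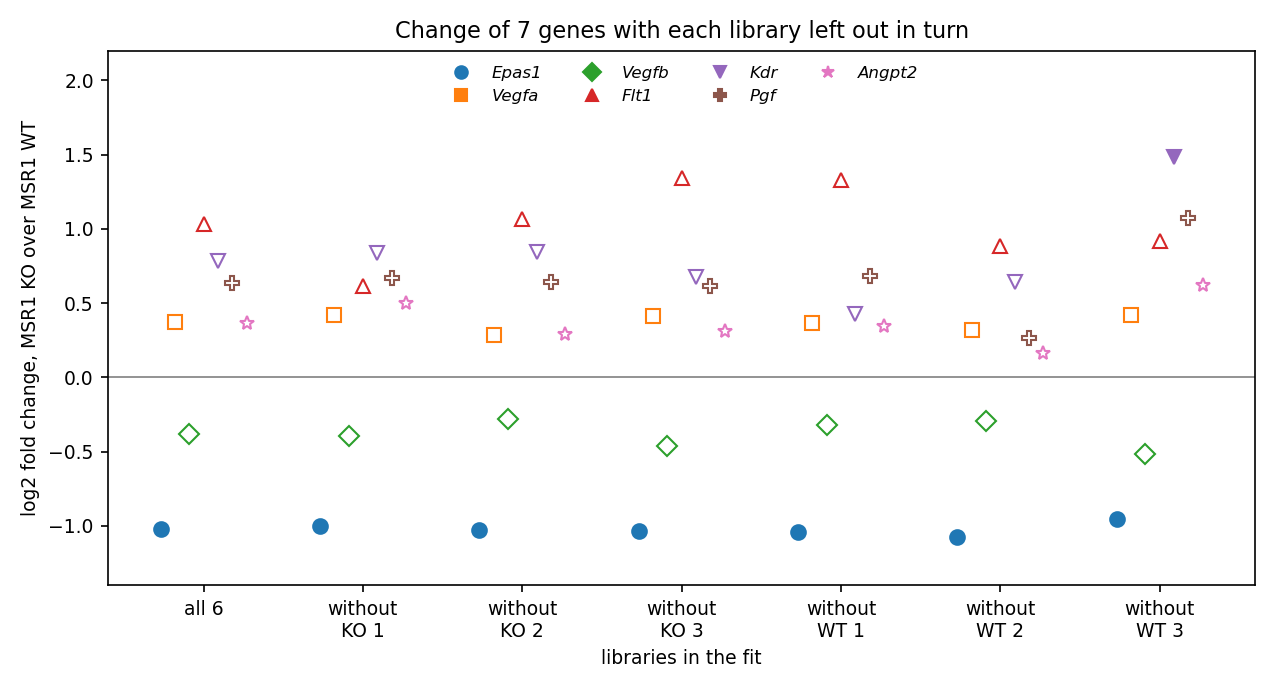
Log2 fold change (y axis, MSR1 KO over MSR1 WT) of 7 genes in the full fit and with each library left out, filled where the adjusted p from edgeR is under 0.05. Epas1 stays between -1.08 and -0.95 throughout, whereas Kdr lies at 0.43 when MSR1 WT replicate 1 is left out and at 1.48 when replicate 3 is.

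Markers of other cell types moved with the genotype or with single libraries. The 12 endothelial markers summed to 124, 152 and 147 CPM in MSR1 KO and to 100.4, 88.1 and 125 CPM in MSR1 WT. MSR1 WT replicate 3, which was high for Kdr, was also the highest MSR1 WT library here. MSR1 WT replicates 1 and 2 went the other way, with Kdr at 2.195 and 4.12 CPM. The list shares Tie1 and Tek with the list of other receptors. Of these 12 markers 11 had a positive log2 fold change with a median of 0.49, and Pecam1, an adhesion molecule that macrophages also carry, passed the test at 0.72 (adjusted p = 0.027 in edgeR). Pecam1 is part of these sums, with means of 53.5 CPM in MSR1 KO and 33.2 CPM in MSR1 WT. The remaining marker Vwf, named after its values were seen, had the opposite sign, at 3.15 ± 1.01 CPM in MSR1 KO and 8.21 ± 2.91 CPM in MSR1 WT (SD, n = 3 each), a log2 difference of -1.36 that did not pass (edgeR adjusted p = 0.0514). Cdh5, the cadherin of endothelial junctions, had 1065, 1492 and 1397 counts in MSR1 KO and 996, 909 and 1326 counts in MSR1 WT libraries. The 17 stromal markers summed to 1999, 2611 and 2022 CPM in MSR1 KO and to 3510, 2830 and 3214 CPM in MSR1 WT. Among them 7 fell and 15 had a negative log2 fold change (median -0.39). Those that fell included Pdgfra at -1.19, Fbn1 at -0.84, Col6a1 at -0.80 and Bgn at -0.76. The collagen genes Col1a2 (-0.39) and Col1a1 (-0.26) did not pass. Thy1 and Lum, named after their values were seen, had the opposite sign at 1.31 and 0.46. For Thy1 the MSR1 KO libraries lay wholly above MSR1 WT (edgeR adjusted p = 0.0907). DESeq2 called 9 stromal markers lower and 1 higher. Of 9 smooth muscle markers 4 fell (Tagln, Acta2, Lmod1 and Myl9), and these sums were 653 to 788 CPM in MSR1 KO and 1079 to 1335 CPM in MSR1 WT libraries. The part of endothelial or stromal RNA in the values of Kdr, Flt1, Angpt2 and Epas1 was not tested. Macrophage markers were abundant, with Lyz2 at 13243 and 15071 CPM and Csf1r at 4487 and 4460 CPM in MSR1 KO and MSR1 WT on average, and Fcgr1 (1.14) and Ptprc (0.35) rose. None of the 10 neutrophil markers passed in edgeR, where 3 were higher at an unadjusted p under 0.05 and DESeq2 called 2. All 10 had a positive log2 fold change (median 0.38), and MSR1 KO lay wholly above MSR1 WT for 30% of them, against 12.1% of tested genes. Csf3r and Ngp, those with the most counts, had log2 fold changes of 0.27 each. The sums were 899 to 1314 CPM in MSR1 KO and 650 to 1040 CPM in MSR1 WT libraries. Of the B cell markers 2 were tested, of which Ebf1, a factor that stromal cells also use, fell by 1.07 on the log2 scale and Cd79b was at 0.27, and the sums were 24.2 to 27.3 CPM and 25.3 to 29.8 CPM in turn.

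Levels of different genes were compared per kb of merged exon. In MSR1 WT macrophages Hif1a was highest at 37.0 ± 1.92 CPM per kb (SD, n = 3), above 92.4% of tested genes. Vegfa followed at 22.9 ± 1.52, Vegfb at 17.7 ± 3.06, Angptl4 at 11.4 ± 1.39, Angpt2 at 9.40 ± 2.94, Angptl2 at 6.47 ± 0.080 and Epas1 at 5.37 ± 0.462 CPM per kb. Pgf at 1.57 ± 0.861, Kdr at 0.567 ± 0.392 and Flt1 at 0.054 ± 0.017 CPM per kb closed the order, the last above 1.17% of tested genes. Neighbours in this order whose libraries overlapped were Angptl4 with Angpt2 and Pgf with Kdr, and the other neighbours did not overlap. In MSR1 KO macrophages Angpt2, at 11.8 ± 1.89 CPM per kb, stood before Angptl4, at 9.23 ± 1.21 CPM per kb, and the other genes kept their places. There Hif1a (34.4 ± 3.41) overlapped with Vegfa (28.9 ± 2.87), Vegfb with Angpt2, Angpt2 with Angptl4 and Angptl4 with Angptl2 (SD in CPM per kb, n = 3). Epas1, at 2.59 ± 0.040 CPM per kb in MSR1 KO, came down to just above Pgf at 2.39 ± 0.077 CPM per kb. The ratio of Kdr to Flt1 per kb was 10.9 ± 7.03 in MSR1 KO and 12.0 ± 9.53 in MSR1 WT (exact permutation test, two-sided p = 1).

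**Figure D4:**
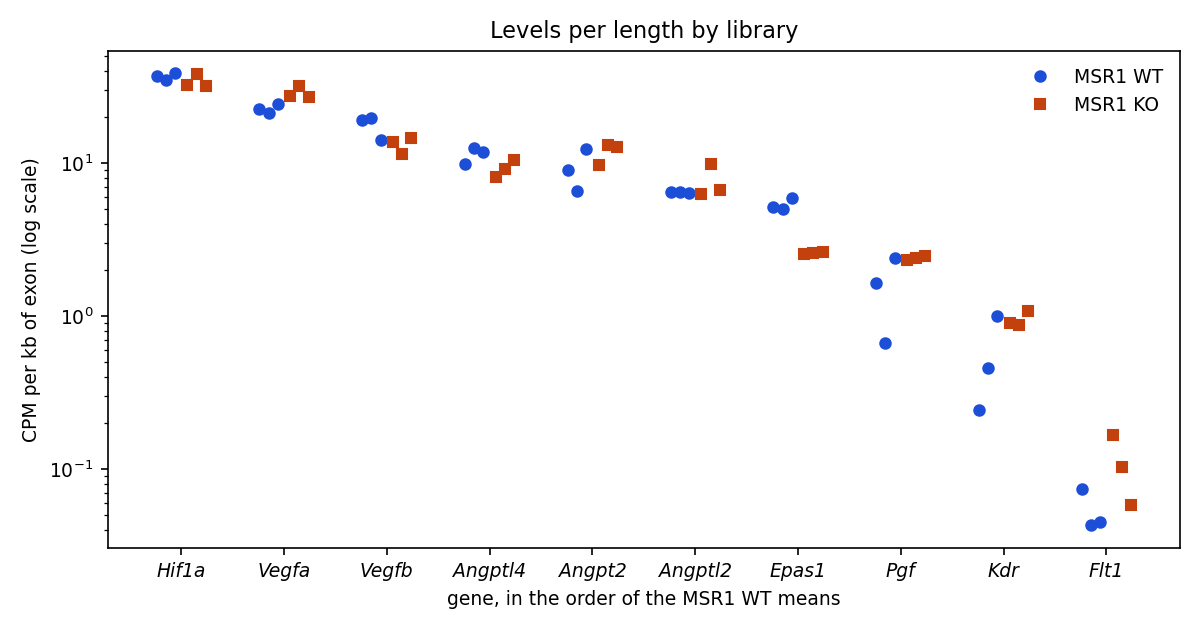
Level of each gene in CPM per kb of exon (log axis) in each library, with MSR1 WT in blue and MSR1 KO in orange. Levels run from Hif1a at 37.0 to Flt1 at 0.054 CPM per kb in MSR1 WT, and the genotypes lie apart for Epas1 and Vegfa.

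The genes whose profile over the 6 libraries lay closest to that of Epas1, among 13609 genes with at least 1 CPM, were Anxa1 (annexin A1), Nnmt (a nicotinamide methyltransferase) and Agpat1 (an enzyme of glycerolipid synthesis), with root mean square differences of 0.0625, 0.0748 and 0.0945 on the log2 scale. Their log2 fold changes were -1.04, -0.95 and -0.89. Closest to Vegfa were Pik3ap1 (0.0364), Jak2 (0.0369) and Slamf7 (0.0375), whose log2 fold changes were 0.36, 0.33 and 0.36.

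The wider pathway was read from lists of other ligands, receptors, inhibitors, HIF regulators, HIF targets and PPAR targets. These lists held 17, 16, 11, 16, 34 and 12 tested genes in turn. Over these lists 2 genes rose and 7 fell in edgeR, where 2.25% of all tested genes were higher and 2.66% lower. There were 0 higher without any 1 of the MSR1 KO libraries or without MSR1 WT replicate 2, 1 without MSR1 WT replicate 1 and 3 without MSR1 WT replicate 3. There were 2 lower without MSR1 KO replicate 1 or MSR1 WT replicate 1, 4 without MSR1 KO replicate 3 or MSR1 WT replicate 2, and 5 without either of the remaining libraries. Over all tested genes the same refits called 18 to 407 higher and 53 to 372 lower, against 369 and 436.

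Among 17 other angiogenic ligands the median log2 fold change was -0.17, against -0.0023 over all tested genes. None passed in edgeR, with 2 higher and 3 lower at an unadjusted p under 0.05, and DESeq2 called 1 in each direction. The ligands with the most counts were Apln, which encodes apelin, at 55.7 ± 5.99 CPM in MSR1 KO and 47.2 ± 13.5 CPM in MSR1 WT, and Pdgfb, which recruits pericytes, at 30.0 ± 5.07 and 34.7 ± 4.86 CPM (SD, n = 3 each).

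Of 16 other receptors 2 fell, with a median over the list of -0.01. At an unadjusted p under 0.05 in edgeR 5 were lower and 1 higher, and DESeq2 called 4 lower and 0 higher. MSR1 KO lay wholly below MSR1 WT for 37.5% of the list, against 13.4% of tested genes. It lay wholly above for 12.5%, against 12.1%. Nrp2, named after its values were seen, was at -0.30 on the log2 scale with MSR1 KO wholly below (edgeR adjusted p = 0.0662). Plxnd1, a semaphorin receptor that guides growing vessels, fell by 0.48 on the log2 scale (adjusted p = 0.0133 in edgeR), and Ednrb, an endothelin receptor, fell by 1.13 (adjusted p = 0.0363 in edgeR). Lpl, the lipase that Angptl4 inhibits, is not a receptor but was on this list and entered its counts and median. Lpl was at 1343 ± 249.2 CPM in MSR1 KO and 1561 ± 167 CPM in MSR1 WT, and the integrin gene Itgb1 was at 583 ± 9.06 and 640.2 ± 10.6 CPM (SD, n = 3 each). Neither passed the test.

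Of 11 angiogenesis inhibitors 2 rose and 1 fell, with a median of -0.13. Cxcl10, an interferon-induced chemokine that restrains vessel growth, rose by 1.27 on the log2 scale (adjusted p = 0.027 in edgeR). Timp3, a protease inhibitor that also blocks VEGF-A at Kdr, rose by 0.59 (adjusted p = 0.0257), whereas Adamts1, a protease that binds VEGF-A, fell by 1.36 (adjusted p = 0.0117, edgeR). Thbs1 and Pf4, the inhibitors with the most counts, had log2 fold changes of -0.13 and 0.16.

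None of 16 HIF regulators passed in edgeR or in DESeq2, with 1 higher and 1 lower at an unadjusted p under 0.05 and a median of 0.02. Ep300, a coactivator of HIF, was at 0.12 and Cited2, which competes for that coactivator, at -0.004 on the log2 scale.

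Of 34 HIF targets 2 fell, and 29 had a negative log2 fold change, with a median of -0.22. Among all tested genes 8273 were negative and 8129 positive. MSR1 KO lay wholly below MSR1 WT for 13 of the 34 (38.2%, against 13.4% of tested genes). This share was 6.25% for HIF regulators and 25% for PPAR targets. It was 37.5% for other receptors, 52.9% for stromal markers and 55.6% for smooth muscle markers. Lox, which cross-links collagen, went from 301.5 ± 34.4 CPM in MSR1 WT to 151 ± 19.4 CPM in MSR1 KO, and changed by -0.97 on the log2 scale (edgeR adjusted p = 0.00918), and Plod2, a collagen lysyl hydroxylase, fell by 0.48 (adjusted p = 0.0295 in edgeR). Stromal cells also make both, and 7 of the 17 stromal markers fell in the same comparison. Their part in these values was not tested. The targets with the most counts, Hmox1 of haem breakdown and Aldoa of glycolysis, had log2 fold changes of -0.38 and -0.18 and did not pass. Vegfa is a HIF target as well and had the opposite sign.

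Of 12 PPAR targets 2 fell, with a median of -0.08. Pdk4, which limits pyruvate oxidation, fell by 0.97 on the log2 scale (adjusted p = 0.0113 in edgeR), and Cd36, a fatty acid and scavenger receptor, fell by 0.32 (adjusted p = 0.0476 in edgeR). Plin2, the lipid droplet coat gene, was at 1033 ± 76.2 CPM in MSR1 KO and 1057 ± 174 CPM in MSR1 WT (SD, n = 3 each).

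**Figure D5:**
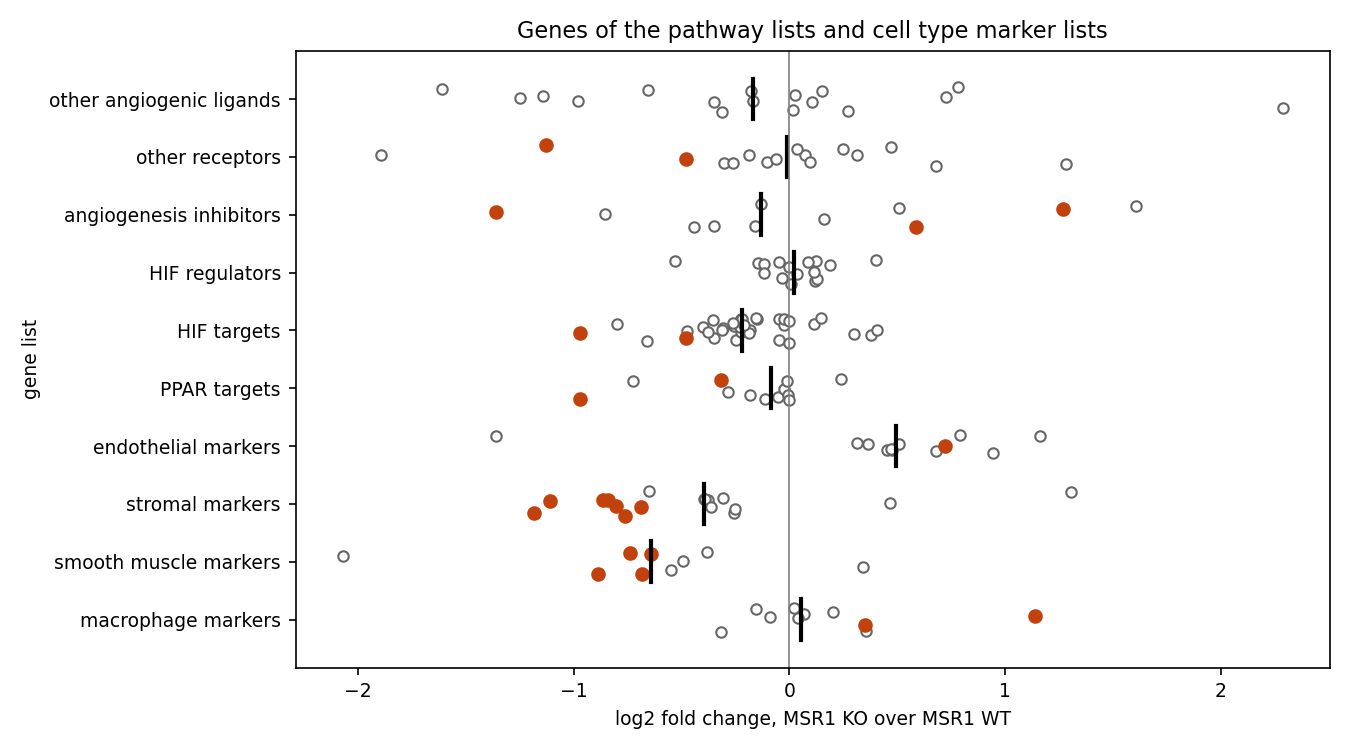
Log2 fold change (MSR1 KO over MSR1 WT) of each tested gene by list, filled where the adjusted p from edgeR is under 0.05, with a black line for the median of the list. The medians of HIF targets (-0.22), stromal markers (-0.39) and smooth muscle markers (-0.64) lie below 0 and that of endothelial markers (0.49) above.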

How the data were processed

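RNA-seq was performed on 3 MSR1 KO and 3 MSR1 WT macrophage libraries. The authors deposited raw counts per gene and library, beside signal columns that equal those counts divided by 1 size factor per library, and the fold change and p-value columns of their own comparison, neither of which was used here. The paper's methods name TopHat and FPKM values, whereas the submitters' processing notes name fastp 0.17.1, HISAT2 2.1.0, DESeq2 1.18.1 and R 3.4.3. Genome build, read counter and strandedness are not given in the sources used here. GENCODE M21 holds 52403 of the 52550 gene identifiers, 49909 of them at identical positions, and coordinates are therefore given as GRCm38. The table lists 0 for each of 37 mitochondrial genes.

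The main test was the quasi-likelihood F-test of edgeR 4.0.16 (R 4.3.3) after filterByExpr and TMM scaling, with Benjamini-Hochberg adjustment over 16402 genes. Standard errors were obtained by dividing each log2 fold change by √F, and 95% intervals use the model's degrees of freedom. The alternatives were DESeq2 1.42.0, other normalizations and count filters, the replicate number as a block and each library left out in turn. CPM values use the raw library size, whereas overlap between groups was read on TMM-normalized CPM. Levels per length divide CPM by the merged exon bases of GENCODE M21. Total counts ranged from 36143518 to 47417448, and a count of 0 would allow up to 3 counts.

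The genes and lists were chosen with earlier results of these data known. Besides the 10 genes, the text names, from each list written by hand, up to 4 genes past an adjusted p of 0.05 and the 2 with the most counts, and the 3 genes whose centred log2 CPM profile lies closest to Epas1 and to Vegfa. Other genes are marked as chosen after their values were seen.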

Additional observations from a re-analysis of the deposited data

How the results depend on the processing

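Epas1 remained called in all 12 alternatives, and no gene among the 10 changed direction. The other 9 log2 fold changes kept their side of the threshold except Vegfa in DESeq2 and Kdr without MSR1 WT replicate 3. The number of the 10 genes higher at an adjusted p under 0.05, 0 in edgeR, was 1 in DESeq2 and 0 to 1 with a library left out, and the number lower was 1 throughout. Under the study's definition the number higher was 2 in DESeq2, 1 without a count filter (Flt1), 1 with at least 10 counts in every library (Flt1), 2 with the replicate block (Flt1 and Kdr) and 0 to 3 with a library left out. Of the other pathway genes, 2 higher and 7 lower, DESeq2 called 14 lower, and leaving out a library gave 0 to 3 higher and 2 to 5 lower. The replicate numbers did not pair the libraries: same-numbered libraries deviated with correlations of -0.03, 0.02 and -0.005, and 2 of 6 libraries were closest to their own number. With the replicate block 0 pathway genes were higher and 4 lower, and over all genes 59 were higher and 78 lower, against 369 and 436. DESeq2 called 720 and 848 of all genes, testing without a filter gave 237 and 288 of 25014, and leaving out a library 18 to 407 and 53 to 372. Over the longest transcript, levels moved to 46.2 for Hif1a, 28.4 for Vegfa, 22.2 for Vegfb, 11.4 for Angptl2 and 0.106 CPM per kb for Flt1, which put Angptl2 before Angpt2. These levels moved because the same CPM were divided by fewer bases, 3559 in place of 6286 for Angptl2 and 6895 in place of 13504 for Flt1. The alternative scale for genes under the count filter was not run, since all 10 passed. Flt1 had the fewest counts of the 10 genes, 25 to 81 per library, and depth was not told apart from the spread between libraries.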
